A study of Mus musculus with 12 samples.

Results

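The genes described here form the core of the JNK cascade: the 3 c-Jun N-terminal kinases (Mapk8, Mapk9 and Mapk10), the MAP kinase kinases Map2k4 and Map2k7 that switch them on, and the scaffold proteins Mapk8ip1, Mapk8ip2, Mapk8ip3 and Spag9 that hold kinase and activator together. They were taken by gene symbol, not by any measured value. Of the 9 genes, 8 were measured under their own symbol, among 18820 genes in all. Map2k7 had no probe set named for it and was not analysed here. RNA came from 4 groups of 3 samples, each sample on 1 one-colour whole-transcript array: primary hepatocytes of JNKΔhepa mice, primary hepatocytes of WT mice, whole liver of JNKΔhepa mice and whole liver of WT mice. The 6 mice were C57BL/6 males aged 7 to 8 weeks, and each provided both kinds of sample. JNKΔhepa mice lack JNK1 in hepatocytes, through floxed Jnk1 and the Albf-Cre transgene (Cre under the albumin promoter and alpha-fetoprotein enhancer), and lack JNK2 in the whole animal (Jnk2-/-). WT mice were littermates with floxed Jnk1 and intact Jnk2 (Jnk1f/fJnk2+/+). The floxed Jnk1 allele is thus common to all groups. Whether WT mice carried Cre is not given in the sources used here. By this design, liver cells without Cre keep Jnk1 in JNKΔhepa mice and lack Jnk2.

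JNKs are stress-activated MAP kinases. Cytokines, reactive oxygen and other stresses act through MAP3 kinases on MKK4 (Map2k4) and MKK7 (Map2k7), which phosphorylate JNK on a threonine and a tyrosine, and JNK then phosphorylates c-Jun and other substrates. JNK1 (Mapk8) and JNK2 (Mapk9) are found in most tissues, and JNK3 (Mapk10) mainly in the nervous system. In liver the pathway is known for its part in injury, cell death and metabolic control.

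Hepatocyte markers were above the array median in every group (9 of 9 genes). All 4 groups are rich in hepatocytes, so this separates neither the tissues nor the genotypes. Replicate arrays of a group correlated at r = 0.987 to 0.993. The values are log2 RMA values, and the array medians lay at 3.22 to 3.28 in hepatocytes and at 4.09 to 4.12 in liver. Markers of 3 other cell types read lower on average in JNKΔhepa hepatocytes. The mean log2 level of 8 Kupffer cell markers was 4.88 to 5.35 in JNKΔhepa and 5.29 to 6.00 in WT hepatocytes. That of 8 endothelial markers was 5.98 to 6.42 in JNKΔhepa and 6.46 to 6.80 in WT hepatocytes, and that of 8 stellate cell markers 4.74 to 5.08 in JNKΔhepa and 5.13 to 5.38 in WT hepatocytes. Of these 24 genes, 1 passed the test (Ecm1, lower), and the Kupffer ranges overlapped. An unadjusted limma p under 0.05 was met by 6 of 8 Kupffer, 8 of 8 endothelial and 5 of 8 stellate cell markers in hepatocytes. Of all genes, 12.6% met it there. The measured cholangiocyte, lymphocyte, and neutrophil and monocyte markers had 0 calls by limma in hepatocytes and median log2 differences of 0.06, 0.03 and 0.01. In liver the ranges of all 3 lists overlapped between the genotypes, for example at 7.34 to 7.54 in JNKΔhepa and 7.18 to 7.86 in WT liver for Kupffer markers. The part of these cells in the results for hepatocytes was not tested. In bulk samples, fewer cells of a type and less RNA per cell cannot be told apart.

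The promoter windows of Mapk9, which is deleted in the whole animal, and of Map2k4, which stood highest among the other members, are shown. Each is the 250 bases before a start site that RefSeq lists (GRCm38.p6), 5′ to 3′ on the gene's strand. RefSeq's gene spans can begin further upstream, and 23 bases of the Mapk9 window and 0 of the Map2k4 window lay inside the gene's span. Capitals mark a GC box (GGGCGG or its complement CCGCCC) or a CCAAT box (CCAAT or ATTGG).
Mapk9, chr11:49846501-49846750, plus strand: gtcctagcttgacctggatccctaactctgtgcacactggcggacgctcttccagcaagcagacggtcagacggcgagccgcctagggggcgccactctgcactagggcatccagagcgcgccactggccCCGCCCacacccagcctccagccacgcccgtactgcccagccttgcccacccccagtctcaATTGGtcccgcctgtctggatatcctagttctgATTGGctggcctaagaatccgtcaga
Map2k4, chr11:65788360-65788609, minus strand: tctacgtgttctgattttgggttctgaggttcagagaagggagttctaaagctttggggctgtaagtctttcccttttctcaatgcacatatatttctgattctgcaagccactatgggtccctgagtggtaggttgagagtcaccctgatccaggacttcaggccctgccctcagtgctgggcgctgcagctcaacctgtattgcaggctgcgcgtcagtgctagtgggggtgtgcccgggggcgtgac
The Mapk9 window held 1 GC box and 2 CCAAT boxes at a GC share of 63.6%. The Map2k4 window held neither box at a GC share of 54%. The Mapk8 window, of which 195 bases lay inside the gene's span, held 7 GC boxes and no CCAAT box at a GC share of 79.2%. RefSeq promoters were found for 8 of the 9 members, all but Mapk8ip1, and 4 of the 8 windows overlapped their gene's span. A GC box stood in 5 of these 8, and in 32.7% of 32851 promoters of the same length. A CCAAT box stood in 2 of 8, and in 33.8% of all. The AP-1 motif TGACTCA, read on both strands like the others, stood in 0 of 8 and in 4.46% of all promoters. The CRE motif TGACGTCA stood in the Mapk10 window alone, and in 1.55% of all. All 250 bases of the Mapk10 window lay inside the gene's span. The TATA motif TATAAA stood in 0 of 8, and in 12.4% of all. Motifs were counted as letters only.

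The genotype comparison within each tissue checks the deletions first. Mapk9 encodes JNK2, which is missing from the whole animal. In hepatocytes its log2 level was 2.62, 2.57 and 2.29 in JNKΔhepa samples, against 8.10, 7.74 and 8.05 in WT samples. In liver it was 2.85, 2.33 and 3.02 in JNKΔhepa samples, against 8.64, 8.69 and 8.59 in WT samples. Every JNKΔhepa array lay below the median of its array, at the 31.1 to 39.6 percentile in hepatocytes and the 17.0 to 34.2 percentile in liver, so the probe set gives only a bound there. Mapk9 was lower by at least 44.4-fold in hepatocytes (log2 difference -5.47, SE 0.159, limma adjusted p = 1.05e-09). It was lower by at least 59.9-fold in liver (-5.90, SE 0.159, limma adjusted p = 4.02e-10). Both calls held in all 22 alternative settings. In WT mice it lay at the 89.1 to 91.0 percentile of its array.

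Mapk8, which encodes JNK1, fell far less. Its log2 level was 4.952, 4.999 and 5.011 in JNKΔhepa hepatocytes, against 5.62, 5.51 and 5.66 in WT hepatocytes. In liver it was 5.95, 5.93 and 6.07 in JNKΔhepa samples, against 6.40, 6.39 and 6.37 in WT samples. The groups did not overlap in either tissue, yet every JNKΔhepa array stayed above its array median. The mean distance above it was 1.75 in hepatocytes and 1.88 in liver (WT 2.33 in hepatocytes and 2.29 in liver). Mapk8 was 1.52-fold lower in JNKΔhepa hepatocytes (log2 difference -0.61, SE 0.0762, 95% confidence interval -0.77 to -0.44, limma adjusted p = 0.00183). It was 1.32-fold lower in JNKΔhepa liver (-0.40, SE 0.0762, interval -0.57 to -0.24, limma adjusted p = 0.027). The hepatocyte call held in all 22 alternatives. The liver call did not hold when any of 5 of the 6 liver arrays was left out: WT replicate 1 (adjusted p = 0.109), 2 (0.096) or 3 (0.0532), or JNKΔhepa replicate 1 (0.12) or 2 (0.106). A whole-transcript probe set reads along the gene, and which part of Jnk1 the deletion removes is not given here, so the level says nothing of how much of the Jnk1 gene was removed. The log2 difference in hepatocytes minus that in liver was -0.20 (SE 0.108, interval -0.44 to 0.03, limma adjusted p = 0.736), so a difference between the tissues was not detected.

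**Figure D1:**
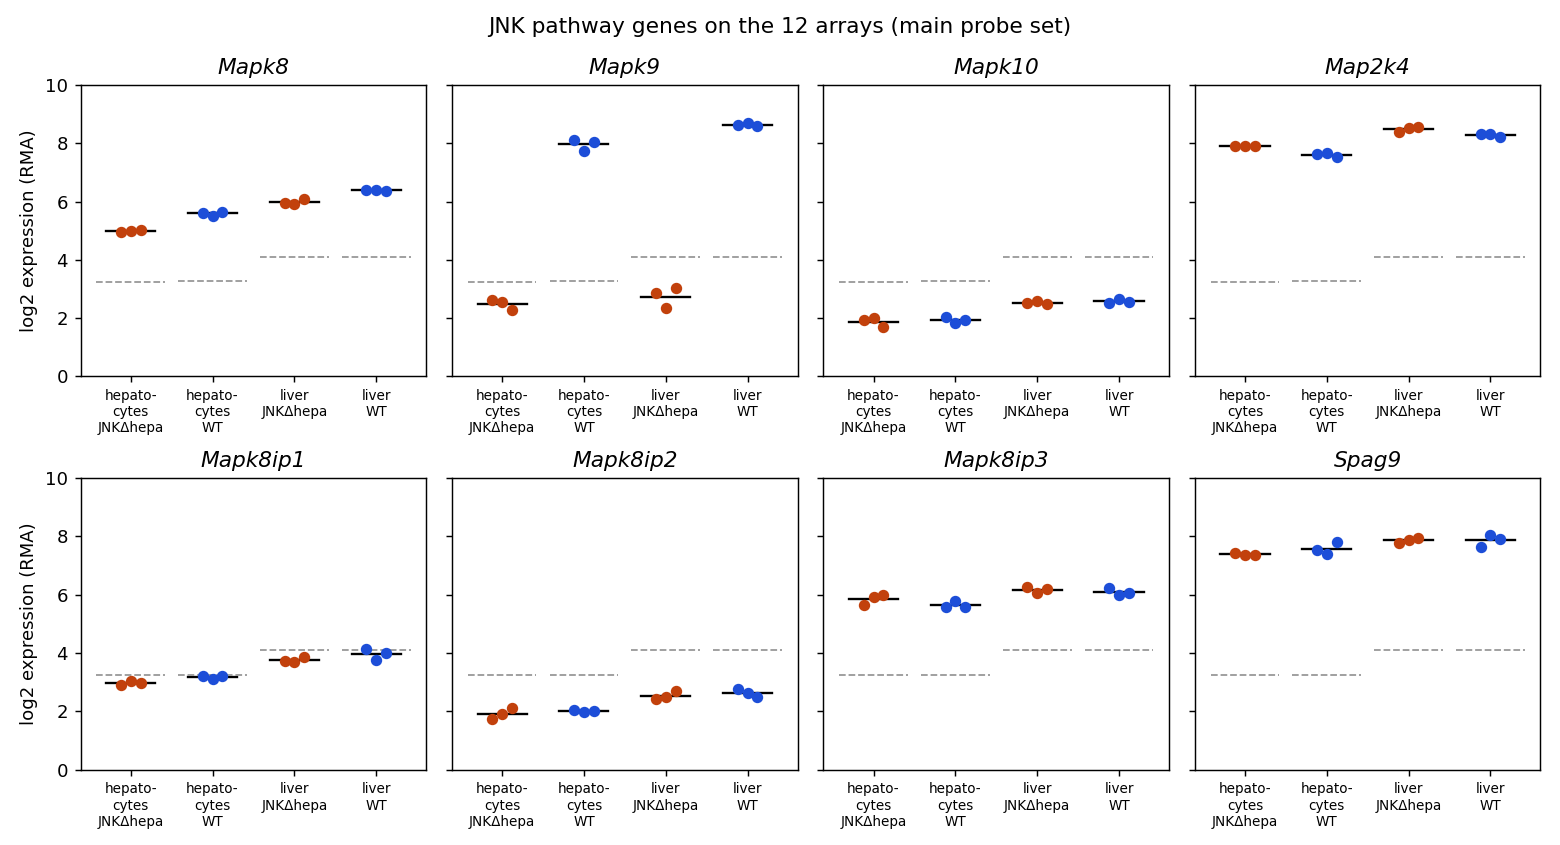
Log2 level (RMA) of the 8 measured genes on each of the 12 arrays, one panel per gene, with JNKΔhepa in orange and WT in blue. Points are arrays, bars are group means of 3 and dashed lines the mean array median. Mapk9 drops below the array median in JNKΔhepa samples, while Mapk8 stays above it.

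Mapk10 encodes JNK3, the third JNK, and was read by 2 probe sets. The brighter one gave 1.94, 2.00 and 1.68 in JNKΔhepa hepatocytes, against 2.05, 1.85 and 1.94 in WT hepatocytes. Liver gave 2.51, 2.59 and 2.49 in JNKΔhepa samples, against 2.52, 2.65 and 2.55 in WT samples. All 12 arrays lay below their array median, and the groups overlapped in both tissues. The log2 difference was -0.07 in hepatocytes (interval -0.28 to 0.13, adjusted p = 0.832) and -0.05 in liver (interval -0.25 to 0.16, adjusted p = 0.914). On the dimmer probe set, liver gave 2.03, 2.07 and 2.15 in JNKΔhepa samples, against 2.01, 1.87 and 1.88 in WT samples. These arrays did not overlap, but the difference of 0.16 did not pass (adjusted p = 0.71 over all probe sets), and in hepatocytes it was 0.09 (adjusted p = 0.851). A gain of Mapk10 RNA beside the loss of Mapk9 RNA and the lower Mapk8 RNA was thus not detected at these dim signals. Of 4 measured neuron and Schwann cell markers, 1 was above the array median in each group.

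Map2k4, which encodes MKK4, had higher values in every JNKΔhepa array but did not pass the test. Its log2 level was 7.89, 7.91 and 7.91 in JNKΔhepa hepatocytes, against 7.62, 7.68 and 7.52 in WT hepatocytes. In liver it was 8.39, 8.52 and 8.56 in JNKΔhepa samples, against 8.31, 8.33 and 8.21 in WT samples. The lowest JNKΔhepa array was above the highest WT array in each tissue. The log2 difference was 0.30 in hepatocytes (SE 0.0796, interval 0.12 to 0.47, unadjusted p = 0.0026, adjusted p = 0.118). It was 0.21 in liver (SE 0.0796, interval 0.04 to 0.38, unadjusted p = 0.022, adjusted p = 0.288). Over the alternatives the adjusted p ranged over 0.071 to 0.289 in hepatocytes and 0.178 to 0.571 in liver, so it passed in none. Groups without overlap were found for 14.7% of all genes in hepatocytes and 20.4% in liver, against 4 of 8 members (Mapk8, Mapk9, Map2k4 and Mapk8ip1) and 3 of 8 (Mapk8, Mapk9 and Map2k4). Map2k4 lies on chromosome 11, as do Mapk9 and Spag9. Between Mapk9 and Map2k4 206 genes were measured, and 10 of them (4.85%) passed in hepatocytes, 2 higher and 8 lower. In liver 10 passed as well, 3 higher and 7 lower. Over all genes the share passing was 0.84% in hepatocytes and 0.925% in liver. Whether the Jnk2-/- allele's neighbourhood bears on Map2k4 was not tested.

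None of the 4 scaffold genes passed the genotype test in either tissue. Mapk8ip1 (JIP1), which brings JNK, MKK7 and mixed-lineage kinases together, gave 2.92, 3.04 and 2.96 in JNKΔhepa hepatocytes, against 3.22, 3.11 and 3.23 in WT hepatocytes. Liver gave 3.72, 3.68 and 3.88 in JNKΔhepa samples, against 4.136, 3.757 and 3.995 in WT samples. Only 1 of the 12 arrays was above its median, and the groups did not overlap in hepatocytes but did in liver. The log2 difference was -0.21 in hepatocytes (interval -0.43 to 0.00389, adjusted p = 0.408) and -0.20 in liver (interval -0.42 to 0.02, adjusted p = 0.448). Mapk8ip2 (JIP2), a close relative of JIP1 known mainly from brain, gave 1.72, 1.93 and 2.11 in JNKΔhepa hepatocytes, against 2.06, 1.99 and 2.02 in WT hepatocytes. The liver values were 2.44, 2.48 and 2.70 in JNKΔhepa samples, against 2.76, 2.63 and 2.50 in WT samples. It was below the median on all 12 arrays and its groups overlapped. The differences were -0.11 (interval -0.34 to 0.13, adjusted p = 0.774) in hepatocytes and -0.09 (interval -0.33 to 0.15, adjusted p = 0.825) in liver.

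Mapk8ip3 (JIP3) and Spag9 (JIP4) are related scaffolds that also link cargo to the motor protein kinesin, and both were well above the array median. Mapk8ip3 gave 5.64, 5.92 and 6.00 in JNKΔhepa hepatocytes, against 5.59, 5.78 and 5.60 in WT hepatocytes. In liver it gave 6.256, 6.044 and 6.202 in JNKΔhepa samples, against 6.23, 5.99 and 6.08 in WT samples. The groups overlapped in both tissues, and the differences were 0.20 in hepatocytes (interval -0.04 to 0.44, adjusted p = 0.527) and 0.07 in liver (interval -0.17 to 0.31, adjusted p = 0.881). A second, dim probe set of the gene differed by 0.06 in hepatocytes and 0.01 in liver (adjusted p = 0.923 and 0.991). Spag9 gave 7.43, 7.35 and 7.37 in JNKΔhepa hepatocytes, against 7.53, 7.41 and 7.80 in WT hepatocytes. In liver it gave 7.78, 7.88 and 7.96 in JNKΔhepa samples, against 7.65, 8.04 and 7.92 in WT samples. The groups overlapped here too, and the differences were -0.20 (interval -0.45 to 0.06, adjusted p = 0.555) in hepatocytes and 0.00338 (interval -0.25 to 0.26, adjusted p = 0.996) in liver.

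Counted together, 2 of 8 members passed in each tissue, both lower and both the targeted genes, beside 0.84% of all genes in hepatocytes (0.473% lower and 0.367% higher) and 0.925% in liver (0.367% lower and 0.558% higher). Of the other 6 members, 0 passed in either tissue by limma and 1 (Map2k4) had an unadjusted p under 0.05, beside 12.6% of all genes in hepatocytes and 12.5% in liver. The median log2 difference of these 6 was -0.09 in hepatocytes and -0.02 in liver, and that of all genes -0.0018 and 0.0155. Regardless of sign, their median size was 0.197 in hepatocytes and 0.0793 in liver, and that of all genes 0.0983 and 0.0978. No member's genotype difference varied between the tissues by the interaction test (0 of 8, and 0 of 8 at an unadjusted p under 0.05), which 0.0106% of all genes passed and 7.22% met at the unadjusted threshold. For Mapk9 both genotype differences are bounds, so their difference was not measured.

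**Figure D2:**
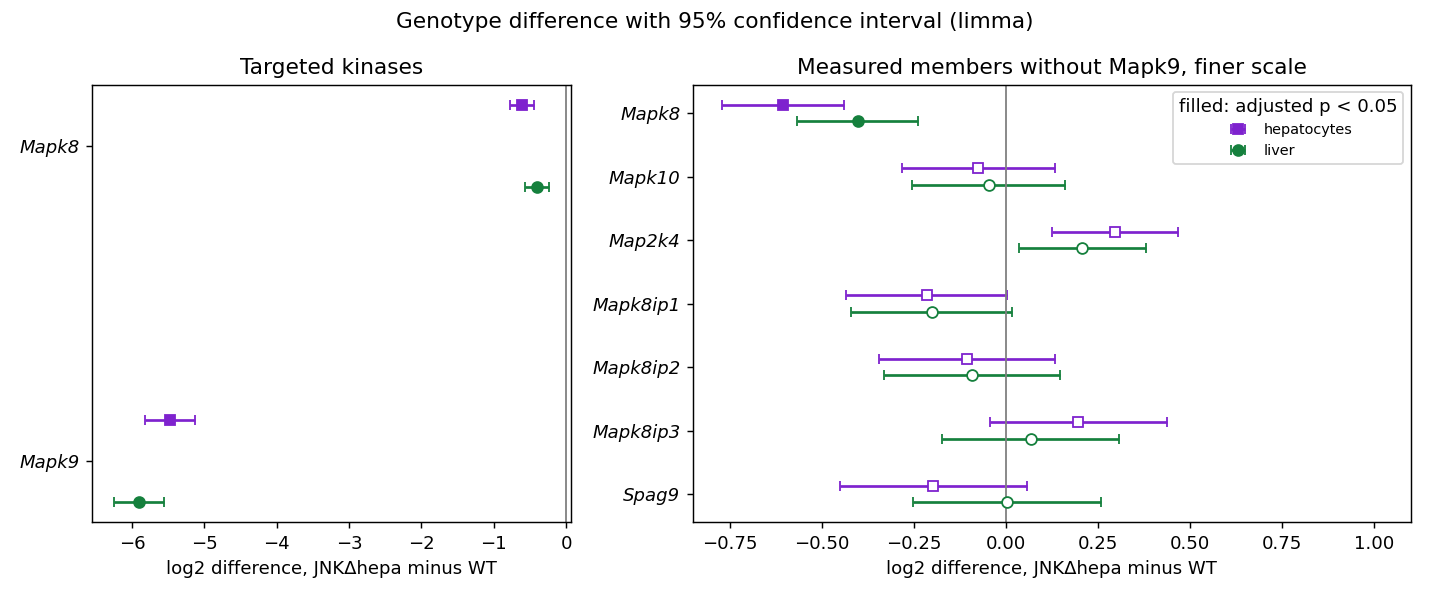
Log2 difference, JNKΔhepa minus WT, with its 95% confidence interval (limma, 3 arrays a group), in hepatocytes (purple squares) and liver (green circles), filled where the adjusted p is under 0.05. Only Mapk8 and Mapk9 are filled, and both Map2k4 intervals lie above 0.

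The second comparison the design allows is between tissues, hepatocytes against liver within a genotype. On the brightest probe set of each gene, as deposited, 8 of 8 members were called lower in WT hepatocytes than in WT liver. In JNKΔhepa mice 7 of 8 were called lower in hepatocytes, and Mapk9 was lower without passing (limma adjusted p = 0.161). These shares stand beside a background of 85.9% of all genes called lower in JNKΔhepa mice and 85.6% in WT mice (86.5% and 86.2% called in either direction), with a median of all genes of -0.60 and -0.58. Direction depended on the scale. The tissues may have been normalised separately, but the processing notes do not say so and this was not tested. In JNKΔhepa mice the differences as deposited were -0.997 for Mapk8, -0.24 for Mapk9, -0.66 for Mapk10, -0.59 for Map2k4, -0.79 for Mapk8ip1, -0.62 for Mapk8ip2, -0.31 for Mapk8ip3 and -0.49 for Spag9. In WT mice they were -0.79 for Mapk8, -0.68 for Mapk9, -0.63 for Mapk10, -0.68 for Map2k4, -0.78 for Mapk8ip1, -0.61 for Mapk8ip2, -0.44 for Mapk8ip3 and -0.29 for Spag9. Mapk8ip3 and Spag9 thus stood above the median of all genes in both genotypes, and Mapk8 below it, as they did on the other scales described next. The dimmer Mapk10 probe set differed by -0.26 in JNKΔhepa mice (limma adjusted p = 0.0424 over all probe sets) and -0.19 in WT mice (0.126). The dim Mapk8ip3 probe set differed by 0.12 in JNKΔhepa mice (limma adjusted p = 0.401 over all probe sets) and 0.08 in WT mice (0.605). Median tissue differences of marker lists, as deposited, were -0.10 for hepatocyte, -2.51 for Kupffer, -2.21 for endothelial and -2.63 for stellate cell markers in JNKΔhepa mice. In WT mice they were -0.20 for hepatocyte, -1.82 for Kupffer, -1.65 for endothelial and -2.22 for stellate cell markers. The part of cell makeup in the members' tissue differences was not tested.

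After quantile normalisation of all 12 arrays together, the median of all genes was 0.0137 in JNKΔhepa and 0.0155 in WT mice. In each genotype 1 of 8 members passed, beside 5619 of 18820 genes in JNKΔhepa and 5336 of 18820 in WT mice. The members were Mapk8ip3 in JNKΔhepa mice (0.44, adjusted p = 0.0121) and Spag9 in WT mice (0.33, adjusted p = 0.0472), both higher in hepatocytes. With each array centred on its median instead, Mapk8ip3 was higher by 0.56 in JNKΔhepa mice (adjusted p = 0.00103) and by 0.39 in WT mice (adjusted p = 0.01). Spag9 was higher by 0.38 in JNKΔhepa mice (adjusted p = 0.0118) and by 0.54 in WT mice (adjusted p = 0.00179). On that scale the median of all genes was itself 0.28 in JNKΔhepa and 0.26 in WT mice, so part of these values is common to all genes. Map2k4 (0.28, adjusted p = 0.00901) and Mapk9 (0.63, adjusted p = 0.00473, dim in both tissues) also passed in JNKΔhepa mice. After centring, 4 of 8 members thus passed in JNKΔhepa mice, beside 11365 of 18820 genes. In WT mice 2 of 8 passed, beside 10626 of 18820 genes. As deposited, 0.712% of the genes called in JNKΔhepa mice and 0.696% of those called in WT mice were higher in hepatocytes. After quantile normalisation the shares were 47.7% in JNKΔhepa and 47.9% in WT mice, and after centring 82.8% in JNKΔhepa and 82.6% in WT mice. As deposited, the Spag9 call in WT mice was lost without hepatocyte WT replicate 1 (adjusted p = 0.0843) or 2 (0.138), or without liver WT replicate 2 (0.145) or 3 (0.0857). The Mapk8ip3 call in JNKΔhepa mice was lost without hepatocyte replicate 1 (0.092) or liver replicate 1 (0.0671), and Mapk9 passed there without liver replicate 2 (-0.445, adjusted p = 0.00789). With its 2 probe sets averaged, Mapk8ip3 did not pass as deposited (-0.0948, adjusted p = 0.403, in JNKΔhepa mice and -0.18, adjusted p = 0.117, in WT mice).

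**Figure D3:**
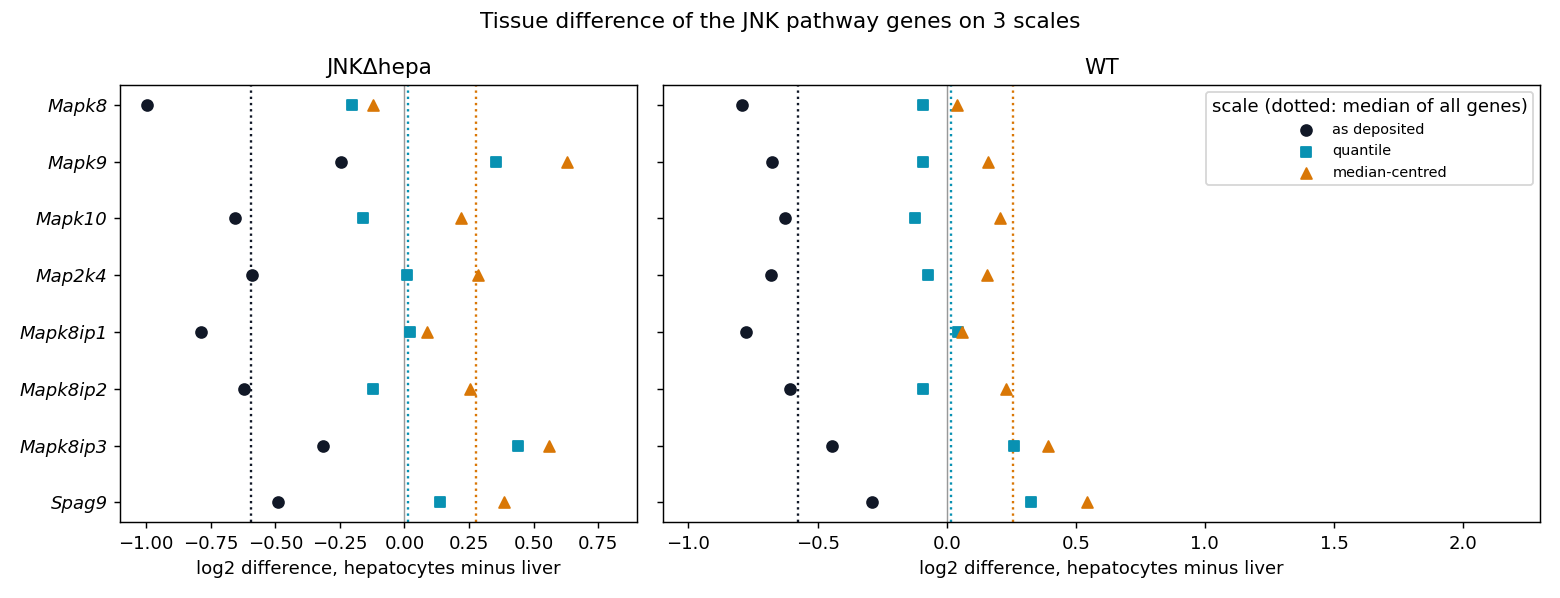
Log2 difference, hepatocytes minus liver, of the 8 measured genes in JNKΔhepa (left) and WT mice (right) on 3 scales, with dotted lines at the median of all genes on each scale. All values (brightest probe set of each gene) are below 0 as deposited, while Mapk8ip3 and Spag9 are above 0 on both other scales.

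Likeness to the targeted kinases was described over the 12 arrays after each tissue was centred, as Pearson's r over 9143 genes. The arrays share mice and genotype, so genes that differ between genotypes in both tissues come out as alike. Mapk8 and Mapk9 themselves had r = 0.961. Closest to Mapk8 were Camk2d (0.969), Slc16a10 (0.964), Atox1 (0.963), Mapk9 and Bcl2l13 (0.957). Closest to Mapk9 were Bcl2l13 (0.991), Ulk2 (0.985), Rpl34 (0.984), Adh6-ps1 (0.982) and Atox1 (0.98). Camk2d, a calcium-dependent kinase, differed by -1.27 in hepatocytes and -0.87 in liver (log2, JNKΔhepa minus WT). Bcl2l13, a member of the Bcl-2 family, differed by -0.83 in hepatocytes and -0.86 in liver, and Ulk2, a kinase of autophagy, by -0.79 in both. Adh6-ps1, a pseudogene of the alcohol dehydrogenases, differed by -4.47 in hepatocytes and -4.80 in liver. Atox1 and Ulk2 lie on chromosome 11 with Mapk9, and Camk2d, Rpl34 and Adh6-ps1 lie on chromosome 3. Bcl2l13 lies on chromosome 6 and Slc16a10 on chromosome 10. Map2k4 ran the other way, with r = -0.905 to Mapk8 and -0.90 to Mapk9. Mapk8ip1 had r = 0.779 to Mapk8 and 0.747 to Mapk9. These values also reflect the genotype differences, which did not pass for Map2k4 or Mapk8ip1, and add no separate evidence.

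The rest of the pathway was described from 5 lists of 88 genes, of which 80 were measured, and 3 genes passed in at least 1 tissue. For comparison with each list, 0.84% of all genes passed in hepatocytes and 0.925% in liver. Of 21 measured MAP3 and MAP4 kinases, which act above MKK4 and MKK7, 0 passed in hepatocytes and 1 was higher in liver. That gene was Taok3, a TAO kinase. It gave 7.49, 7.21 and 7.24 in JNKΔhepa hepatocytes, against 6.91, 6.98 and 6.96 in WT hepatocytes. The liver values were 8.16, 8.02 and 8.24 in JNKΔhepa samples, against 7.70, 7.52 and 7.40 in WT samples. The groups did not overlap in either tissue, and the difference was 0.37 in hepatocytes (adjusted p = 0.136) and 0.60 in liver (SE 0.103, adjusted p = 0.0153). The liver call was lost without WT replicate 2 (adjusted p = 0.062), JNKΔhepa replicate 1 (0.0705) or 3 (0.074). An unadjusted limma p under 0.05 was met by 4 of these 21 genes in each tissue, beside 12.6% of all genes in hepatocytes and 12.5% in liver. The median of the list was 0.0298 in hepatocytes and 0.0246 in liver, beside -0.0018 and 0.0155 for all genes.

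Of 18 measured adaptors and activators, 0 passed in either tissue by limma. At an unadjusted p under 0.05 there were 3 in each, beside 12.6% of all genes in hepatocytes and 12.5% in liver. Gadd45b and Gadd45g, stress-induced activators of the MAP3 kinase MEKK4, had the smallest p. Gadd45g differed by 1.197 in hepatocytes (SE 0.38, adjusted p = 0.187), and Gadd45b by 1.42 in liver (SE 0.341, at least 2.68-fold, adjusted p = 0.0797). Gadd45b passed without hepatocyte WT replicate 2 (0.0443). The list's median was 0.0778 in hepatocytes and 0.0534 in liver.

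Of 12 phosphatases that act on JNK, 1 passed in each tissue, and it was Dusp8, a dual-specificity phosphatase of the MAP kinases. It gave 2.71, 2.87 and 2.83 in JNKΔhepa hepatocytes, against 3.52, 3.58 and 3.61 in WT hepatocytes. In liver it gave 3.50, 3.65 and 3.34 in JNKΔhepa samples, against 3.98, 4.18 and 4.08 in WT samples. Dusp8 was lower by at least 1.7-fold in hepatocytes (-0.76, adjusted p = 0.0015), and by 0.59 on the log2 scale in liver, where it was dim in both groups (adjusted p = 0.0101). An unadjusted limma p under 0.05 was met by 3 of the 12 in each tissue, beside 12.6% of all genes in hepatocytes and 12.5% in liver. The median of the list was -0.0715 in hepatocytes and 0.0565 in liver.

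Of 16 measured JNK substrates, 1 passed in each tissue, Jun, which encodes the transcription factor c-Jun. It gave 7.98, 7.66 and 7.81 in JNKΔhepa hepatocytes, against 8.74, 8.36 and 8.86 in WT hepatocytes. In liver it gave 5.79, 5.75 and 5.86 in JNKΔhepa samples, against 6.38, 6.79 and 6.45 in WT samples. Jun was lower without overlap in both, by 0.84 on the log2 scale in hepatocytes (adjusted p = 0.0135) and by 0.74 in liver (adjusted p = 0.0264). The hepatocyte call was lost without WT replicate 1 (0.0704) or 3 (0.0614) or JNKΔhepa replicate 2 (0.0706) or 3 (0.061). The liver call was lost without WT replicate 2 (0.103) or JNKΔhepa replicate 1 (0.0944), 2 (0.0931) or 3 (0.0686). An unadjusted limma p under 0.05 was met by 5 of the 16 in each tissue, Jun included, beside 12.6% of all genes in hepatocytes and 12.5% in liver. The median of the list was 0.00565 in hepatocytes and -0.0205 in liver.

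Of 13 measured other MAP kinases and MAP2 kinases, 0 passed in either tissue by limma. At an unadjusted p under 0.05 there was 1 in each, beside 12.6% of all genes in hepatocytes and 12.5% in liver. Mapk6 (ERK3) was the one in hepatocytes, with a difference of 0.21 (adjusted p = 0.371). Map2k6, which activates p38, was the one in liver and differed by -0.86 in liver (unadjusted p = 0.0369, adjusted p = 0.359), and by -0.36 without liver WT replicate 3. Mapk14, the p38α kinase that MKK4 can also activate, differed by 0.16 in hepatocytes (adjusted p = 0.436) and -0.09 in liver (adjusted p = 0.703). The median of this list was -0.0488 in hepatocytes and -0.0257 in liver.

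**Figure D4:**
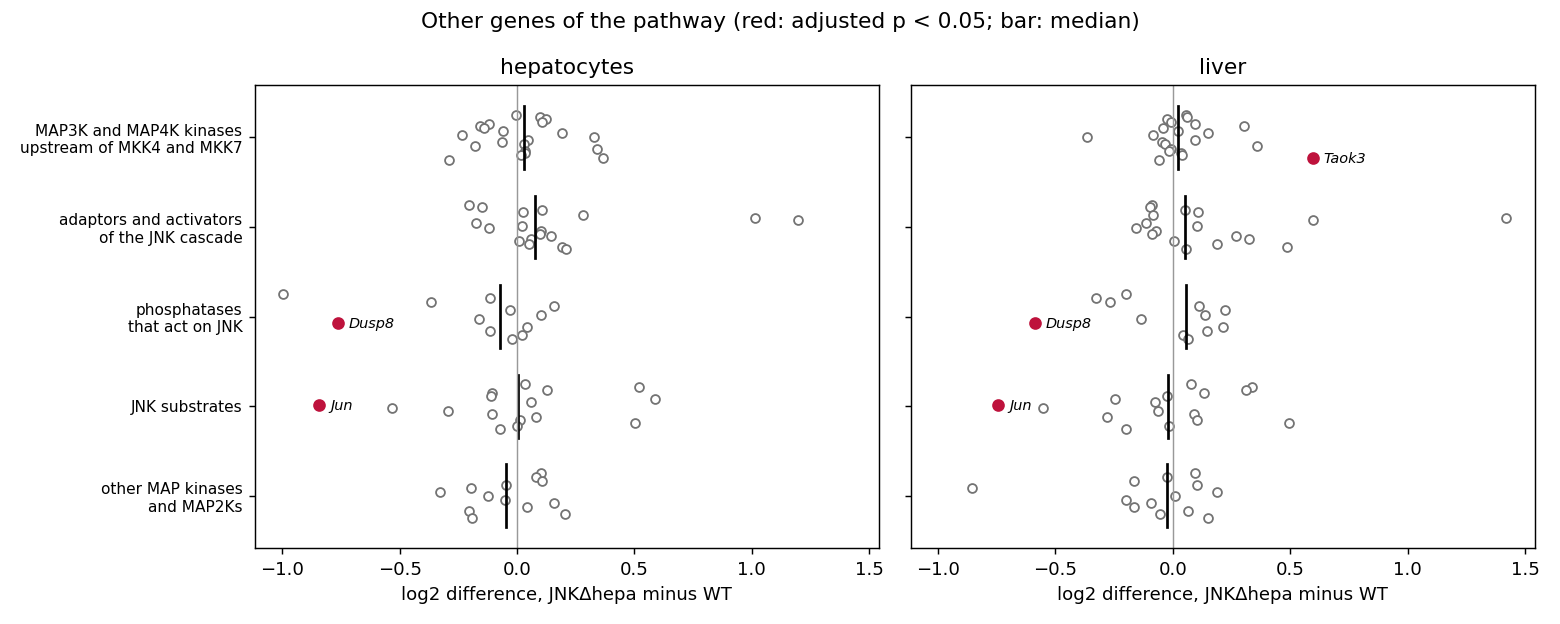
Log2 difference, JNKΔhepa minus WT, of 80 measured pathway genes in 5 lists, in hepatocytes (left) and liver (right). Each point is a gene, red where the limma adjusted p is under 0.05, and bars are list medians. Red points are Dusp8 and Jun in both tissues and Taok3 in liver, and the medians lie near 0.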

How the data were processed

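RNA of 12 samples (6 mice, 3 of each genotype, liver and hepatocytes of each) was read on 12 arrays. The deposited values are log2 expression per probe set made with RMA, per the submitters' processing notes. The log base was read from the range of the values, and no source used here names the software or build. The table held 35556 probe sets, of which the platform annotation gave 1 symbol to 21218, several to 1881 and none here to 12457. The probe set brightest over the 12 arrays stood for each of 18820 genes. Names were checked against RefSeq (GRCm38.p6, 18790 genes matched).

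Group means were fitted with limma 3.58.1 (R 4.3.3, statmod 1.5.0) to all 12 arrays, with 8 residual and 4.76 prior degrees of freedom. Tests were two-sided, with p-values adjusted over all genes (Benjamini-Hochberg) and a threshold of 0.05. The fit was tested on simulated data with independent noise on each array, so that test does not cover mice shared between tissues. Its planted shifts were larger than the genotype differences of all members but Mapk9. Where the dimmer group had an array below that array's median, the size is a lower bound, and where both groups had one it is not exact. The 3 arrays per group limit the precision. The spread is that between mice.

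Liver and hepatocytes of a mouse are paired by the labels. Deviations of the same mouse correlated at r = -0.01 to 0.10, and the mouse-block correlation was 0.0487. The members and lists were chosen with earlier results of these data known. Named were all members with every probe set, Mapk14, and, from each pathway list and tissue, up to 3 called genes or, with none called, the gene with the smallest p. Alternatives covered scaling, probe-set choice, dim genes, blocks, array weights and single arrays left out. Figures were made in Python 3.11.15 with matplotlib 3.10.9, numpy 2.4.6 and pandas 2.3.3.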

Additional observations from a re-analysis of the deposited data

How the results depend on the processing

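The genotype results for the 8 measured members were recomputed in 346 gene-by-setting combinations, of which 339 kept their side of the threshold. The sign turned in 8, all of uncalled values near 0 (3 of Mapk10 and 5 of Spag9). The 7 lost calls were Mapk8 in liver, so the count of members passing there was 1 in place of 2 with the replicate number as a block (Mapk8 adjusted p = 0.05004) and with the 6 liver arrays alone (0.0711), and 1 to 2 with single arrays left out. Replicate numbers across genotypes do not pair the samples (r = -0.12 to 0.11). The hepatocyte count stayed at 2, and the mouse as a block changed no member's call. The interaction had 0 members past the threshold in every setting, and the sign turned in 17 combinations, for Mapk10, Mapk8ip1 and Mapk8ip2.

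The tissue comparison depended on the scale. The count of members passing was 1 in JNKΔhepa and 1 in WT mice after quantile normalisation, and 4 and 2 after median centring. With dim genes left out 5 members remained, of which 4 passed in JNKΔhepa and 5 in WT mice, and none of these 5 changed its call. With single arrays left out it was 6 to 8 in JNKΔhepa and 7 to 8 in WT mice. After quantile normalisation the sign turned in JNKΔhepa mice for Mapk9 (0.36, uncalled on both scales), Map2k4 (0.00951), Mapk8ip1 (0.0235), Mapk8ip3 (0.44) and Spag9 (0.14), and in WT mice for Mapk8ip1 (0.0450), Mapk8ip3 (0.26) and Spag9 (0.33). After centring it turned in JNKΔhepa mice for Mapk9 (0.63), Mapk10 (0.22), Map2k4 (0.28), Mapk8ip1 (0.0861), Mapk8ip2 (0.25), Mapk8ip3 (0.56) and Spag9 (0.38). In WT mice it turned for Mapk8 (0.0412), Mapk9 (0.16), Mapk10 (0.21), Map2k4 (0.16), Mapk8ip1 (0.0589), Mapk8ip2 (0.23), Mapk8ip3 (0.39) and Spag9 (0.54). These scales move the median of all genes by construction.

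Over all genes, 158 passed in hepatocytes, against 84 with all probe sets tested, 77 with the 6 hepatocyte arrays alone, and 61 to 387 with single arrays left out. In liver 174 passed, against 95 with all probe sets tested, 408 with array weights and 80 to 208 with single liver arrays left out. Hepatocyte counts were 73, 387 and 80 without WT replicates 1, 2 and 3, and 315, 63 and 61 without JNKΔhepa replicates 1, 2 and 3. Liver counts were 81, 103 and 208 without WT replicates 1, 2 and 3, and 80, 108 and 90 without JNKΔhepa replicates 1, 2 and 3. The interaction had 2 genes, and 1 to 7 elsewhere. Tissue counts were 16282 in JNKΔhepa and 16231 in WT mice, 5619 and 5336 after quantile normalisation, 11365 and 10626 after centring, and 9732 and 9582 without dim genes. Among pathway genes, Gadd45b in liver passed with array weights (adjusted p = 0.0399) and with the replicate number as a block (0.017), Gadd45g in hepatocytes with the hepatocyte arrays alone (0.00729), and Taok3 (0.0538), Dusp8 in liver (0.0538) and Jun in hepatocytes (0.0622) did not pass with 1 tissue's arrays alone. Jun in liver did not pass with the replicate block (0.0525) or with all probe sets (0.0766). Why these counts and calls changed was not tested. Signals below the array median limit Mapk10, Mapk8ip1, Mapk8ip2 and, in JNKΔhepa mice, Mapk9.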
